A study of Mus musculus with 18 samples.

Results

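This is an account of 9 genes of T cell costimulation in mouse CD8 T cells: 6 receptors of the tumour necrosis factor (TNF) receptor family (Cd27, Tnfrsf1b, Tnfrsf4, Tnfrsf9, Tnfrsf18 and Tnfrsf26), the TNF family ligand Tnfsf8, the adaptor Traf1, and Icos, a receptor of the CD28 family. They were taken by symbol from the 46983 genes of the deposited table, and each symbol matched 1 row. The series compared 5 libraries of memory-phenotype (CD44 high) and 5 of naive (CD44 low) CD8 T cells from mice with the genotype Dock2-Hsd/Hsd, called Dock2-deficient (Dock2-/-) in the labels, with 4 memory and 4 naive libraries from wild-type mice. No treatment or age was stated. The strain was given as C57BL/6J throughout, but sample descriptions of the Dock2-deficient mice read C57L6NHsd, so substrain and genotype cannot be told apart.

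Receptors of the TNF receptor family that lack a death domain, such as CD27, OX40, CD137, GITR and TNFR2, recruit TRAF adaptor proteins and switch on NF-kappaB, which supports the survival and expansion of T cells after antigen. ICOS instead signals mainly through phosphoinositide 3-kinase. CD27 is present on resting T cells, whereas OX40 and CD137 are induced by activation, and several of these receptors are also abundant on regulatory CD4 T cells.

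Values are RSEM expected counts that the authors scaled between libraries, called levels here. The libraries held 2215987 to 8257768 expected reads, of which the ribosomal RNA gene Rn18s-rs5 took 37.0% to 69.4%, so that 850659 to 2830470 reads lay on other genes. Dock2 RNA was 61.0 to 279.6 in Dock2-deficient memory, 171 to 373 in Dock2-deficient naive, 399.7 to 844 in wild-type memory and 288 to 514 in wild-type naive libraries. Its difference between genotypes did not pass limma's test in memory (adjusted p = 0.121) or naive cells (adjusted p = 0.841). Xist was 0 to 5.44 in 4 of the 5 libraries of each Dock2-deficient group, 2593 and 2217 in memory and naive library 1, and 1820.4 to 3887 in all 8 wild-type libraries, so the sexes were not balanced between genotypes. On the first principal components, Dock2-deficient memory library 5 (-82.8 on the first) and wild-type memory library 4 (113.9 on the second) stood apart. The labels do not state whether the libraries of a group came from different mice. The p-values therefore reflect library-to-library spread, which may be technical.

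Cd44, the gene of the sorting marker, was higher in memory than in naive cells by 5.58 (log2) in Dock2-deficient and 4.71 in wild-type mice. CD8 T cell markers (Cd8a, Cd8b1, the Cd3 chains and Trac) summed to 5984 to 13152 per library. Of 6 markers of CD4 and regulatory T cells, Cd4, Zbtb7b, Foxp3, Cd40lg and Il2ra fell under the test's filter, with group means from 0 to 4.10. Their sum with Ikzf2 ranged from 16.7 to 56.2 in Dock2-deficient memory, 12.5 to 58.5 in Dock2-deficient naive, 13.1 to 88.2 in wild-type memory and 10.8 to 42.2 in wild-type naive libraries. Of the other marker lists, 5 B cell genes summed to 23.1 to 57.5 per library and 6 myeloid genes to 5.71 to 64.6. The 5 natural killer cell genes summed to 73.4 to 96.6 in Dock2-deficient memory, 4.55 to 65.2 in Dock2-deficient naive, 90.9 to 132 in wild-type memory and 6.99 to 15.4 in wild-type naive libraries, and the myeloid list to 19.5 to 64.6, 6.57 to 23.3, 28.3 to 46.9 and 5.71 to 26.6. The 5 gamma delta T cell genes summed to 19.5 to 25.5, 33.3 to 75.4, 39.8 to 64.7 and 5.18 to 9.06 in the same order. Of the natural killer list 2 genes passed the filter, Klrb1c and Eomes, and of the myeloid list 2, Fcer1g and Itgam. Memory over naive, Fcer1g was 2.965 (log2) in Dock2-deficient and 4.44 in wild-type mice, whereas Itgam was 1.43 and -0.31. In the same order Klrb1c was 2.25 and 3.64, and Eomes 1.86 and 2.89. Of the gamma delta list 2 genes passed the filter: Trdc was -1.52 and 1.63, and Tcrg-C2 -0.23 and 3.15. In naive cells, Dock2-deficient over wild type, Trdc was 2.73 and Tcrg-C2 1.94. The 2 tested myeloid genes thus differed in direction in wild-type mice, while those of the other 2 lists went the same way. The sums do not show which cells were present. The part of other cell types in the results below was not tested. In bulk samples fewer cells of a type and less RNA per cell cannot be told apart.

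Per kilobase of annotated exon, Cd27 had the highest level of the 9 genes, with a mean of 134 ± 31.3 (SD, n = 18 libraries), and it lay above every other member in all 18 libraries. Tnfrsf18 followed with 36.7 ± 11.1, Traf1 with 28.4 ± 6.00, Tnfrsf26 with 26.4 ± 9.44 and Tnfrsf1b with 20.7 ± 8.38 per kilobase. Tnfsf8 had 15.9 ± 7.25, Icos 13.4 ± 4.80, Tnfrsf9 9.09 ± 4.85 and Tnfrsf4 2.34 ± 2.34 per kilobase. From Tnfrsf18 downward, the ranges of neighbours in this order overlapped, and each gene exceeded the next in 10 to 15 of the 18 libraries. Exon lengths joined all annotated isoforms, so a gene with long rare isoforms reads low on this scale.

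**Figure D1:**
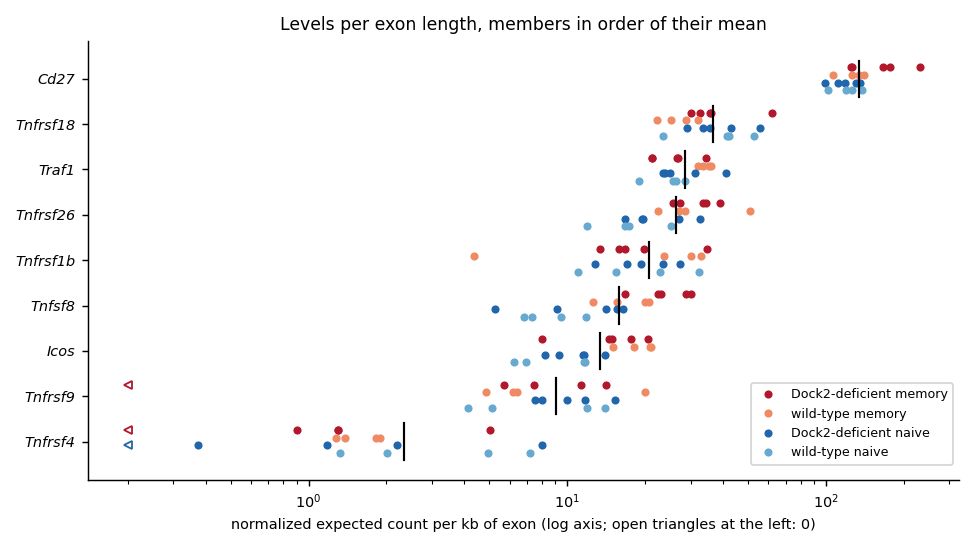
Normalized expected count per kilobase of exon on a log axis for the 9 genes, with 1 point per library coloured by group and a black line at the mean over 18 libraries. Cd27 stands apart at a mean of 134, the other genes overlap with their neighbours, and Tnfrsf4 lies lowest at 2.34 (open triangles are libraries at 0).

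Of the 9 members, 8 passed the filter of a level of at least 10 in at least 4 libraries, and each of these did so in all 4 groups. Tnfrsf4 did not, with a level of 10 or more in 1 library. Genes were tested with limma on log2(level + 1) over all 9437 genes that passed, with Benjamini-Hochberg adjustment at 0.05, and fold changes are on this scale. Of the 8 tested members, 1 passed in memory against naive cells of Dock2-deficient mice, where 2.82% of all genes tested passed, namely Tnfsf8; 2 had an unadjusted p under 0.05, against 13.4% of all genes. None passed in the same comparison in wild-type mice, where 2.52% of all genes passed, and 4 of 8 had an unadjusted p under 0.05, against 12.1% of all genes. With voom weights in limma none passed in either, and 1 (Dock2-deficient) and 3 (wild type) had an unadjusted p under 0.05. Wherever voom weights are named, the libraries were also rescaled to their sums, Rn18s-rs5 included. The median log2 fold change of all genes was then -0.12 (Dock2-deficient) and -0.15 (wild type), so weights and rescaling cannot be told apart. The shares of all genes given here are those of the fit without these weights.

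The ligand gene Tnfsf8 encodes CD30 ligand, a TNF family member carried by T cells that binds the receptor CD30 (Tnfrsf8). It lies on chromosome 4 (chr4:63831308-63861347, minus strand, mm10). Its promoter window is shown because it was the member that passed, beside the window of Tnfrsf9 that held motif matches. Each window runs from 250 bases before to 50 after the RefSeq transcription start on GRCm38.p6, and capitals mark the matches.

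Tnfsf8 (chr4:63861235-63861534, minus strand): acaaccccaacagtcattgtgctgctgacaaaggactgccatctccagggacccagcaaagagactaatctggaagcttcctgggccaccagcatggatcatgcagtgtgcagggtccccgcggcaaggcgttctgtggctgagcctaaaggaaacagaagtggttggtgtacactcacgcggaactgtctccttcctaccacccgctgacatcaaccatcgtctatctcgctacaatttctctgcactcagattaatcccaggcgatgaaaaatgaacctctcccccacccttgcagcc
Tnfrsf9 (chr4:150927749-150928048, plus strand): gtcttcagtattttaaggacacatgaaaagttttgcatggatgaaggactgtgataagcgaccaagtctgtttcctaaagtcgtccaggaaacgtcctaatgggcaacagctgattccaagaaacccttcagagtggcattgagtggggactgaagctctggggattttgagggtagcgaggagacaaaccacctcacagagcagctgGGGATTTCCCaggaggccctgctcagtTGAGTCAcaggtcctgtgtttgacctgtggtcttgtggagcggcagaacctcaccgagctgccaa

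The following motifs were searched on both strands: GGGA and CC separated by any 4 bases for NF-kappaB, AGGTGTGA for the T-box half-site bound by T-bet and Eomes, and TGANTCA for AP-1. They occur in 20.7%, 1.28% and 7.81% of the 32851 promoter windows of the table. RefSeq windows were matched for 7 of the 9 members (8 windows), all but Icos and Tnfrsf26. The window of Tnfrsf9 shown here held an NF-kappaB match starting 42 bases before the start site and an AP-1 match starting 15 bases before it, which do not overlap. These letters were not found in the other 7 windows.

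Tnfsf8 levels were 63.9, 87.7, 115, 85.1 and 109.7 in Dock2-deficient memory libraries 1 to 5, against 20.003, 62.5, 34.8, 59.4 and 53.8 in Dock2-deficient naive libraries 1 to 5. Every memory library lay above every naive library, by a margin of 63.9 to 62.5 at the nearest. The means were 92.3 ± 20.6 and 46.1 ± 18.1 (SD, n = 5 each), with a log2 fold change of 1.07 ± 0.29 (SE; limma, adjusted p = 0.0494). The rise in Dock2-deficient memory cells ranked 264 of 9437 genes by p-value and sat just inside the threshold. The call held under 3 of 12 alternatives besides the leave-one-out fits: a pseudocount of 5, a stricter filter and Xist as a covariate. The 12 include the fit without both libraries that stood apart. It held in 3 of the 10 leave-one-out fits, while the fold change stayed between 0.75 and 1.202 in all 22. Scaling libraries to equal sums without Rn18s-rs5, which shifts the median of all genes by -0.32 here, gave the lowest value (0.75, adjusted p = 0.192).

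**Figure D2:**
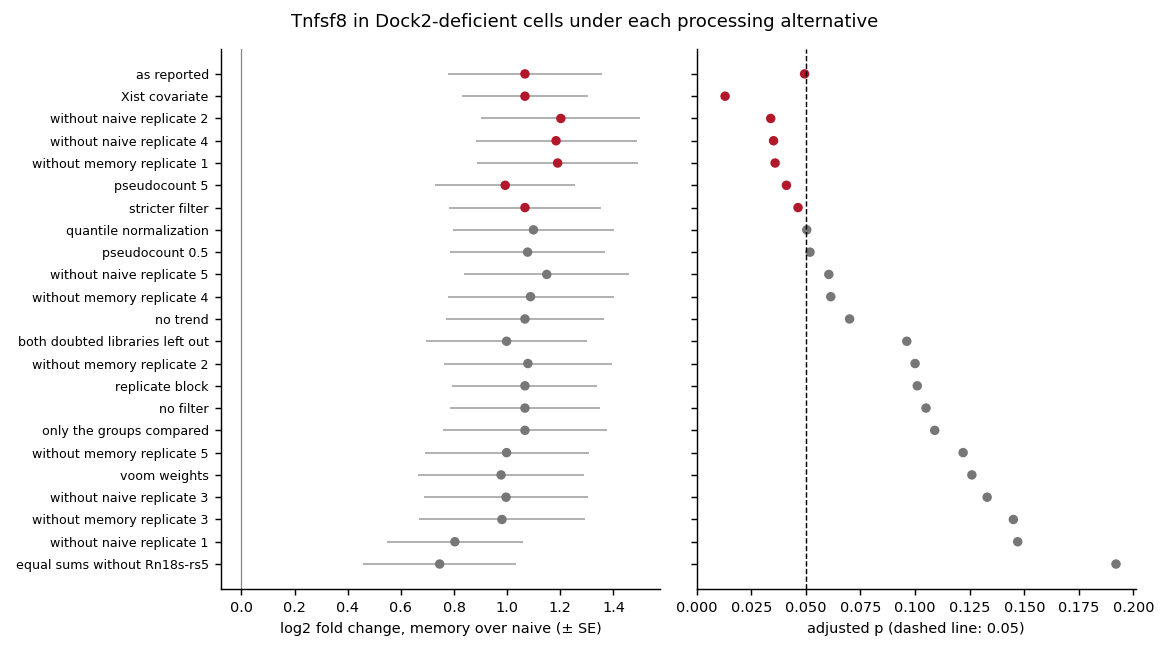
Tnfsf8 in memory against naive Dock2-deficient cells: log2 fold change with its SE (left) and adjusted p (right) as reported, at the top, and under 22 alternatives below it. The fold change stays above 0 throughout, and the adjusted p (0.013 to 0.192) crosses the dashed line at 0.05, red points being past it.

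In wild-type mice Tnfsf8 levels were 76.3, 59.2, 78.6 and 48.1 in memory libraries 1 to 4, against 25.9, 36.2, 27.9 and 45.2 in naive libraries 1 to 4. The groups again did not overlap. With a log2 fold change of 0.94 ± 0.32 the gene missed the threshold (adjusted p = 0.169). The difference between the genotypes' fold changes was 0.13 ± 0.43 (95% interval -0.78 to 1.03, adjusted p = 0.963), so the call in 1 genotype does not show a genotype difference. The 3 genes most like Tnfsf8 in pattern over the 18 libraries were Rnf138, Ctsd and Mgat1. Their centred log2 levels differed from those of Tnfsf8 by a root mean square of 0.33, 0.34 and 0.36, against 0.68 for the spread of Tnfsf8 itself, among 3840 genes with a mean of at least 50.

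Icos, the inducible costimulator of the CD28 family, lies on chromosome 1 (chr1:60977927-61000320, plus strand, mm10). In Dock2-deficient mice it had 60.4, 70.4, 49.8, 51.1 and 27.4 in memory libraries 1 to 5, against 28.2, 39.4, 39.9, 48.1 and 31.9 in naive libraries 1 to 5. In wild-type mice it had 72.1, 62.3, 51.6 and 71.7 in memory libraries 1 to 4, against 40.2, 39.8, 23.8 and 21.5 in naive libraries 1 to 4. The Dock2-deficient groups overlapped through memory library 5, the lowest of its group, while in wild type all memory libraries were above the naive ones. Memory over naive, Dock2-deficient mice had a log2 fold change of 0.42 ± 0.27 (adjusted p = 0.534), and 0.62 (adjusted p = 0.294) without the libraries that stood apart. In wild type it was 1.06 ± 0.30 (95% interval 0.44 to 1.68, adjusted p = 0.0651), the nearest to the threshold of the members that missed it, and it passed under none of 20 alternatives (adjusted p 0.0528 to 0.269). The difference between these fold changes was -0.64 ± 0.40 (adjusted p = 0.819).

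Traf1, an adaptor that joins TRAF2 at receptors such as CD137 and is itself an NF-kappaB target, lies on chromosome 2 (chr2:34941750-34961772, minus strand, mm10). It had 303.5, 235, 237, 187 and 188 in Dock2-deficient memory libraries 1 to 5, against 221, 362, 274, 211 and 207 in Dock2-deficient naive libraries 1 to 5. It had 295, 318, 282 and 312.9 in wild-type memory libraries 1 to 4, against 168, 251, 226 and 233 in wild-type naive libraries 1 to 4. The wild-type groups did not overlap and the Dock2-deficient groups did. Memory over naive, the value was -0.14 ± 0.19 (log2) in Dock2-deficient (adjusted p = 0.809) and 0.47 ± 0.21 in wild-type mice (adjusted p = 0.361). The difference of -0.61 ± 0.28 between them had the smallest p of the members in that test but did not pass (95% interval -1.199 to -0.02, adjusted p = 0.819).

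Tnfsf8, Icos and Traf1 were thus the 3 of 8 tested members whose wild-type memory libraries all lay above the naive ones, a pattern held by 4.99% of all genes tested. In Dock2-deficient mice Tnfsf8 was the 1 member of this kind, against 2.35% of all genes. No member lay wholly below, as 1.58% of all genes did in Dock2-deficient and 3.27% in wild-type mice. The median log2 fold change of the tested members was 0.20 in Dock2-deficient and 0.27 in wild-type mice, against -0.01 and -0.02 for all genes. Members were chosen with earlier results of these data known, so these counts are a description.

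**Figure D3:**
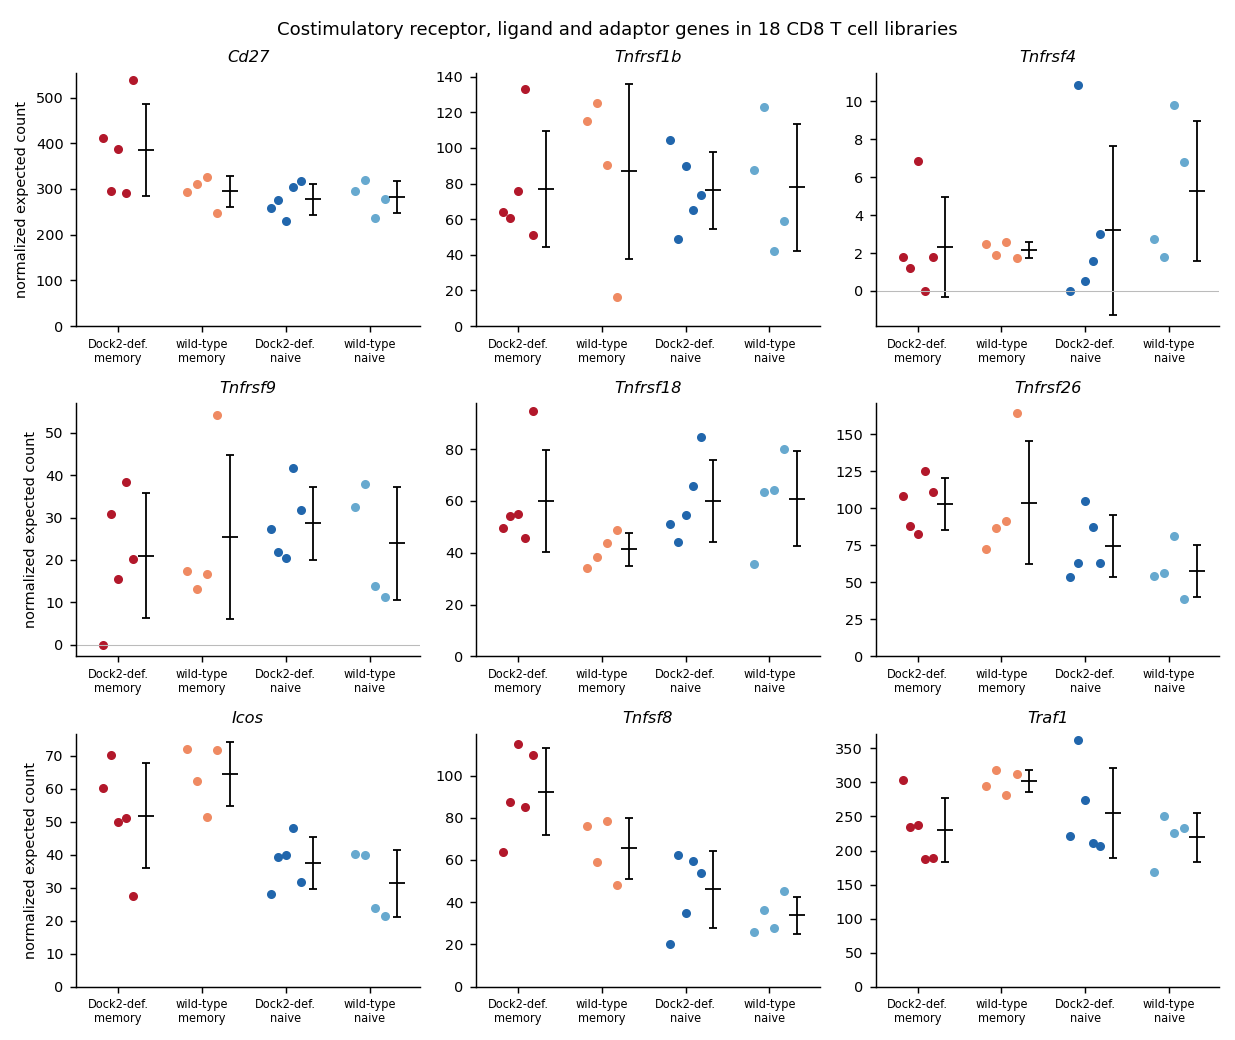
Normalized expected counts of the 9 genes in each library (points, in order of replicate number from left to right) by group, with black bars for mean and SD; groups have 5 Dock2-deficient or 4 wild-type libraries. Tnfsf8 shows memory above naive libraries in both genotypes, and Icos and Traf1 in wild type, while the groups of the other genes overlap in all comparisons.

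Cd27, the receptor for CD70 that sustains T cell survival, lies on chromosome 6 (chr6:125232622-125237010, minus strand, mm10). It had 412, 295, 388, 291 and 538 in Dock2-deficient memory libraries 1 to 5, against 259, 275, 230.4, 303.99 and 317 in Dock2-deficient naive libraries 1 to 5. Its wild-type levels were 294, 311.7, 326 and 248 in memory libraries 1 to 4, against 295, 320.2, 238 and 278 in naive libraries 1 to 4. Memory and naive libraries overlapped in both genotypes, and Dock2-deficient memory library 5 held the highest level. The log2 fold change was 0.44 ± 0.18 in Dock2-deficient mice (adjusted p = 0.268). It was 0.06 ± 0.20 in wild-type mice (95% interval -0.36 to 0.48, adjusted p = 0.952). This was the most deeply sampled member, with 170 to 608 expected reads per library, and the spread within groups (SD 0.25 on the log2 scale) was above the 0.083 that counting alone gives at its median of 301.5 reads.

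Tnfrsf26 belongs to a mouse gene cluster on chromosome 7 (chr7:143607659-143628722, minus strand, mm10) next to Tnfrsf22 and Tnfrsf23, decoy receptors for TRAIL. Of its 50-base transcript words 1.89% occur in other genes, of which E230032D23Rik shared the most. Its levels were 108, 87.7, 82.5, 125 and 111 in Dock2-deficient memory libraries 1 to 5, against 53.6, 63.2, 105, 87.4 and 62.7 in Dock2-deficient naive libraries 1 to 5. In wild-type libraries 1 to 4 they were 72.1, 86.9, 91.5 and 164 in memory cells, against 54.0, 56.1, 81.1 and 38.4 in naive cells. The groups overlapped in both genotypes, and wild-type memory library 4 was the highest of all 18. Log2 fold changes of memory over naive were 0.49 ± 0.25 in Dock2-deficient (adjusted p = 0.418) and 0.82 ± 0.28 in wild-type mice (adjusted p = 0.173). Without wild-type memory library 4 the wild-type value was 0.58 ± 0.27 (adjusted p = 0.516).

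Tnfrsf18, which encodes GITR, and Tnfrsf4, which encodes OX40, lie 9551 bases apart on chromosome 4 (chr4:156026164-156028895 and chr4:156013843-156016612, both plus strand, mm10). Tnfrsf18 had 49.7, 54.3, 55.0, 45.8 and 94.6 in Dock2-deficient memory libraries 1 to 5, against 50.9, 44.2, 54.6, 65.8 and 84.6 in Dock2-deficient naive libraries 1 to 5. It had 34.0, 38.4, 43.8 and 49.0 in wild-type memory libraries 1 to 4, against 35.8, 63.3, 64.3 and 80.1 in wild-type naive libraries 1 to 4. The groups overlapped, with 1 wild-type naive library as low as the memory libraries. The log2 fold change was -0.02 ± 0.25 in Dock2-deficient (95% interval -0.55 to 0.51, adjusted p = 0.988) and -0.51 ± 0.29 in wild-type mice (adjusted p = 0.526). The antisense gene Gm16008 shares 414 exon bases with Tnfrsf18. Its mean level was 0.414, and reads of the 2 strands are not separated in these libraries.

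Tnfrsf4 was close to the limit of detection, with 59 expected reads in all 18 libraries together. Its levels were 0 to 6.87 in Dock2-deficient memory, 0 to 10.9 in Dock2-deficient naive, 1.75 to 2.58 in wild-type memory and 1.81 to 9.78 in wild-type naive libraries. The groups overlapped in every comparison. By an exact two-sided permutation test the difference in mean log2(level + 1) between memory and naive cells was -0.09 in Dock2-deficient (p = 0.960) and -0.79 in wild-type mice (p = 0.143), where the smallest possible p-values are 0.00794 and 0.0286. No difference was detected at this depth.

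Tnfrsf9, which encodes CD137 (chr4:150914562-150946102, plus strand, mm10), had 0, 30.9, 15.5, 38.3 and 20.3 in Dock2-deficient memory libraries 1 to 5, against 27.3, 21.8, 20.5, 41.7 and 31.9 in Dock2-deficient naive libraries 1 to 5. It had 17.4, 13.2, 16.8 and 54.2 in wild-type memory libraries 1 to 4, against 32.5, 38.0, 13.97 and 11.3 in wild-type naive libraries 1 to 4. The groups overlapped. Wild-type memory library 4 lay far above the rest of its group, and Dock2-deficient memory library 1 was at 0. The 0 stood in the library with the fewest reads, where a count of 0 allows a level of up to 5.33 (3 reads, counting error only). The log2 fold change was -1.09 ± 0.71 in Dock2-deficient (adjusted p = 0.546; -0.16 without memory library 1, adjusted p = 0.918) and 0.02 ± 0.80 in wild-type mice (adjusted p = 0.997; -0.41 without memory library 4, adjusted p = 0.984).

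Tnfrsf1b encodes TNFR2, the TNF receptor without a death domain (chr4:145213463-145246870, minus strand, mm10). It had 63.9, 60.5, 75.6, 133 and 51.3 in Dock2-deficient memory libraries 1 to 5, against 105, 48.9, 89.7, 65.0 and 73.7 in Dock2-deficient naive libraries 1 to 5. It had 115, 125, 90.2 and 16.6 in wild-type memory libraries 1 to 4, against 87.6, 123, 41.9 and 58.7 in wild-type naive libraries 1 to 4. The groups overlapped, and wild-type memory library 4 held the lowest level of all. Log2 fold changes were -0.03 ± 0.43 in Dock2-deficient (adjusted p = 0.989) and -0.06 ± 0.49 in wild-type mice (adjusted p = 0.981; 0.60 without memory library 4, adjusted p = 0.701). Its within-group SD of 0.78 and that of Tnfrsf9 (1.30) were the widest of the tested members, against 0.25 to 0.46 for the others.

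**Figure D4:**
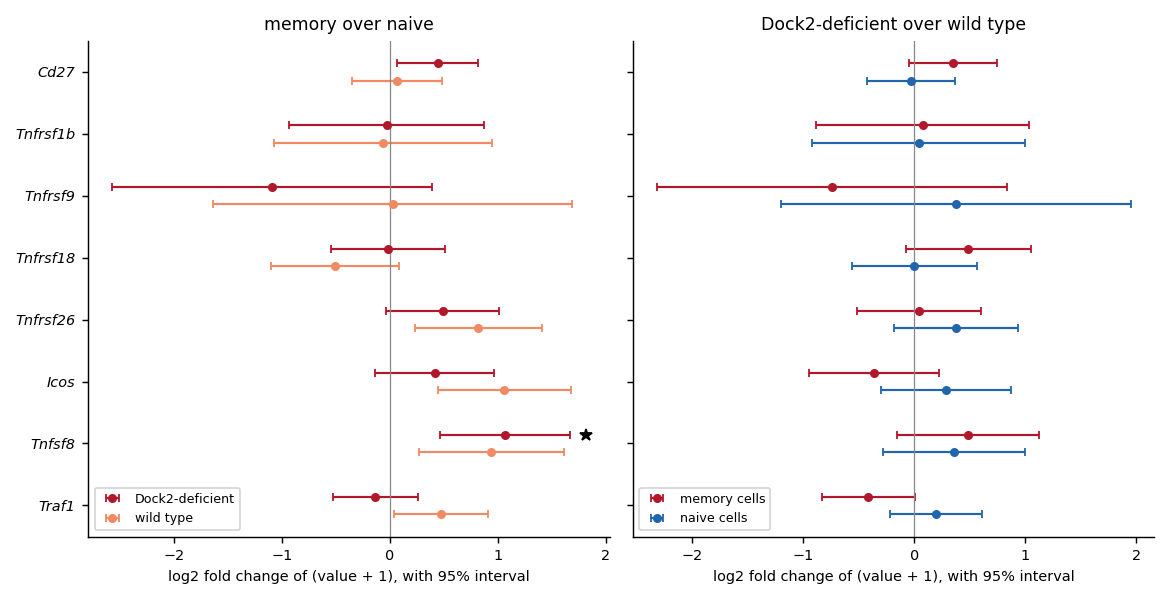
Log2 fold changes of level + 1 with 95% intervals from limma for the 8 tested members, memory over naive (left) and Dock2-deficient over wild type (right); the star marks an adjusted p under 0.05. Tnfsf8 in Dock2-deficient mice carries the star, and the widest intervals are those of Tnfrsf9.

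Between genotypes, no tested member passed in memory cells, where 0.053% of all genes did, or in naive cells, where 0.138% did. In limma none had an unadjusted p under 0.05 in either, against 16.4% and 6.1% of all genes. With voom weights 0 passed and 1 (memory) and 0 (naive) had an unadjusted p under 0.05, while the shares are those without these weights. In exact two-sided permutation tests of each of the 9 genes alone, without adjustment, Traf1 and Tnfrsf18 had p = 0.0317 in memory cells (smallest possible 0.00794), and no gene was under 0.05 in naive cells. By the same exact two-sided permutation test, memory against naive cells gave p = 0.00794 for Tnfsf8 in Dock2-deficient mice, the smallest possible. In wild-type mice the exact two-sided permutation test gave p = 0.0286 for Icos, Traf1 and Tnfsf8, again the smallest possible. Groups that do not overlap always give the smallest possible p in this test. These memory-against-naive p-values therefore restate the separation described above and are no further support. No permutation p was compared with all genes, so those of Traf1 and Tnfrsf18 do not show a genotype difference. Between genotypes the groups of every tested member overlapped, while 4.44% of all genes in memory and 2.71% in naive cells did not overlap. In memory cells the means were 92.3 ± 20.6 and 65.5 ± 14.5 for Tnfsf8, and 384.9 ± 101 and 295 ± 33.8 for Cd27, in Dock2-deficient (SD, n = 5) and wild-type mice (SD, n = 4). The log2 fold changes were 0.48 ± 0.31 for Tnfsf8 (adjusted p = 0.415) and 0.35 ± 0.19 for Cd27 (adjusted p = 0.356). Traf1 averaged 230.2 ± 47.5 in Dock2-deficient and 302.1 ± 16.4 in wild-type memory cells, with a log2 fold change of -0.41 ± 0.20 (95% interval -0.83 to 0.00, adjusted p = 0.31). Icos averaged 51.8 ± 15.9 and 64.4 ± 9.69 (-0.36 ± 0.28, adjusted p = 0.515).

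For the other members in memory cells the log2 fold changes were 0.49 ± 0.27 for Tnfrsf18, 0.04 ± 0.27 for Tnfrsf26, 0.08 ± 0.46 for Tnfrsf1b and -0.74 ± 0.76 for Tnfrsf9 (adjusted p 0.363 to 0.945). The last 3 of these moved when 1 library was left out. Without wild-type memory library 4 they were 0.29 for Tnfrsf26 (adjusted p = 0.65), -0.59 for Tnfrsf1b (adjusted p = 0.501) and -0.31 for Tnfrsf9 (adjusted p = 0.882). Without Dock2-deficient memory library 1 the value of Tnfrsf9 was 0.19 (adjusted p = 0.846). In naive cells all 8 values lay between -0.03 and 0.37, with adjusted p-values of 0.948 to 1. The narrowest intervals there were those of Cd27 (-0.43 to 0.37) and Traf1 (-0.22 to 0.61), and the widest that of Tnfrsf9 (-1.202 to 1.95). Tnfsf8 was lowest of its Dock2-deficient groups in library 1 in both memory and naive cells, the libraries with Xist. All wild-type libraries had Xist, so a covariate for it rests on library 1 against the other libraries of the Dock2-deficient groups. It cannot separate Xist from anything else particular to those libraries. With Xist as a covariate the genotype fold changes of Tnfsf8 took the opposite sign, -0.29 ± 0.35 in memory and -0.41 ± 0.35 in naive cells. Those of Tnfrsf9, which was at 0 in the memory library with Xist, became -2.63 ± 0.87 in memory and -1.51 ± 0.87 in naive cells, the naive one with the opposite sign. For Tnfrsf26 the memory value became -0.12 ± 0.37. No tested member passed with the covariate (adjusted p 0.686 to 0.969 in memory and 0.999 in naive cells). Tnfrsf4 did not differ detectably between genotypes by the exact permutation test (p = 0.579 in memory and 0.31 in naive cells, smallest possible 0.00794).

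In the test of whether memory and genotype interact, 0 of 8 members passed in limma, as did 0.0318% of all genes. Traf1 alone had an unadjusted p under 0.05, against 5.21% of all genes, and with voom weights 0 passed and 0 had such a p. Both shares are those of the fit without these weights.

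The wider pathway was described by 5 lists with 55 tested genes together, of which 2 passed in each genotype in memory against naive cells. This was 3.64%, near the 2.82% in Dock2-deficient and 2.52% in wild-type mice over all genes. For the unadjusted counts below, 13.4% of all genes in Dock2-deficient and 12.1% in wild-type mice had such a p under 0.05, in either direction. Of 22 other TNF receptor family genes 8 were tested and none passed in memory against naive cells (unadjusted p under 0.05: 2 lower in Dock2-deficient mice and 0 in wild type). Of 17 other ligands 4 were tested, and 1 rose in both genotypes: Tnfsf14, which encodes LIGHT, a ligand of HVEM (Tnfrsf14) and the lymphotoxin beta receptor. All 19 TRAF and receptor-proximal genes were tested without a call (2 lower in each genotype at an unadjusted p under 0.05). So were 14 of 15 NF-kappaB genes (2 lower in Dock2-deficient mice and 1 higher in wild type). Of 14 genes of the CD28 family, its ligands and phosphoinositide 3-kinase, 10 were tested and 1 rose in both genotypes: Cd28, the main costimulatory receptor of naive T cells. Median log2 fold changes of these lists ran from -0.26 to 0.30 in Dock2-deficient and -0.14 to 0.66 in wild-type mice. No gene of these 5 lists passed between genotypes or in the interaction (unadjusted p under 0.05: 2 higher and 7 lower in memory cells, 2 higher and 1 lower in naive cells, and 0 higher and 3 lower in the interaction). Over all genes, in either direction, 16.4%, 6.1% and 5.21% had an unadjusted p under 0.05 in these 3 tests.

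Tnfsf14 had 12.4, 44.5, 34.4, 34.0 and 33.6 in Dock2-deficient memory libraries 1 to 5, against 3.64, 4.08, 4.10, 2.41 and 0 in Dock2-deficient naive libraries 1 to 5. In wild-type libraries 1 to 4 it had 53.1, 51.6, 38.7 and 16.6 in memory cells, against 6.61, 5.42, 2.79 and 0 in naive cells. All memory libraries lay above all naive ones. The log2 fold changes of 3.19 ± 0.58 in Dock2-deficient (adjusted p = 0.00183) and 3.35 ± 0.65 in wild-type mice (adjusted p = 0.00362) held under every alternative but voom weights (adjusted p = 0.0771 and 0.115). The gene passed the filter through its memory libraries.

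Cd28 had 158, 226, 223, 137 and 178 in Dock2-deficient memory libraries 1 to 5, against 64.6, 115, 46.6, 74.6 and 58.7 in Dock2-deficient naive libraries 1 to 5. It had 169.9, 180.1, 137 and 345 in wild-type memory libraries 1 to 4, against 72.7, 75.9, 108 and 98.2 in wild-type naive libraries 1 to 4. Memory libraries lay above naive ones in both genotypes. The log2 fold change of 1.39 ± 0.26 in Dock2-deficient mice (adjusted p = 0.00267) held under all 22 alternatives, left-out libraries included. That of 1.15 ± 0.29 in wild-type mice (adjusted p = 0.034) held in 2 of 8 leave-one-out fits and under 5 of 12 other alternatives. The 5 were the lower and the higher pseudocount, the stricter filter, quantile normalization and the Xist covariate. The 12 include the fit without both libraries that stood apart, where the fold change was 0.87 (adjusted p = 0.139).

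**Figure D5:**
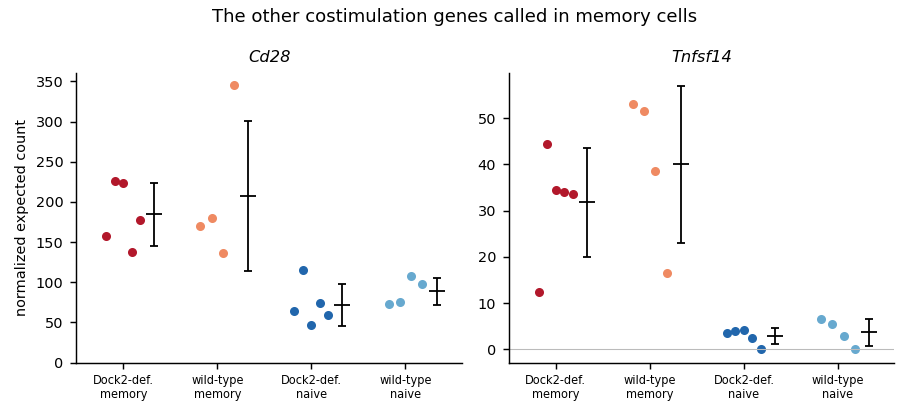
Normalized expected counts of Cd28 and Tnfsf14 in each library by group, with black bars for mean and SD (5 Dock2-deficient or 4 wild-type libraries). Both genes are higher in every memory library than in any naive library of the same genotype.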

How the data were processed

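RNA of sorted naive and memory-phenotype CD8 T cells was isolated (Qiagen RNAeasy kit) for Smartseq2 libraries, per the labels' protocols, a method without strand information. The build was mm10 and RSEM was among the tools, per the submitters' processing notes; not given in the sources used here are versions, annotation and scaling method. As deposited, the values are a normalized signal: every value in each library (100%) was a multiple of 0.01 reads divided by a factor of that library, and 59.5% to 69.3% of those above 0 were whole reads within 0.005. They were therefore taken as scaled expected counts, and no count model was run. All 18 columns matched a library. Between libraries of a group the chi-square per degree of freedom was 4.69 to 168, so none was a copy.

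Levels were tested as log2(level + 1) with limma 3.58.1 in R 4.3.3 on 9437 genes with at least 10 in at least 4 libraries: 1 mean per group, 14 residual degrees of freedom, trended variances, two-sided tests. All members were named. Listed genes were named where they passed, as were the 3 genes most like a called member. Members and lists were chosen with earlier results of these data known. The fit was tested on simulated data. Positions came from GENCODE M21 (46488 identifiers found), promoters from RefSeq. Python 3.11.15 and matplotlib 3.10.9 drew the plots.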

Additional observations from a re-analysis of the deposited data

Results flagged for a closer look

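Single libraries far from the others of their group were searched for in the 9 members and in Cd28 and Tnfsf14 (44 groups of values), by Dixon's test, which chance meets in about 1 of 20 groups. It picked 4 values, each the highest of its group. Tnfrsf9 was 54.2 in wild-type memory library 4, where the next was 17.4. Tnfrsf18 was 94.6 in Dock2-deficient memory library 5, where the next was 55.0. Both are the libraries that stood apart on the principal components. Tnfrsf4 was 6.87 (4 expected reads) in Dock2-deficient memory library 3, where the next was 1.78. It was 10.9 (16 expected reads) in Dock2-deficient naive library 2, where the next was 2.99 (3 expected reads).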

How the results depend on the processing

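The count of 1 member called in memory against naive Dock2-deficient cells became 0 with a pseudocount of 0.5, with no filter, with equal sums without Rn18s-rs5, with quantile normalization, with no trend, with voom weights, with only the groups compared, with the replicate block, and without the pair of libraries that stood apart; it was 0 to 1 when each library was left out. In each of these Tnfsf8 kept its direction, and the cause was not tested. The other comparisons had 0 members called under all 20 (wild type), 21 (genotype, memory), 21 (genotype, naive) and 29 (interaction) alternatives. The Xist covariate was chosen after seeing the data. Over all genes the calls ranged over the alternatives from 167 to 321 in Dock2-deficient and 138 to 278 in wild-type mice for memory against naive cells, and from 0 to 14 (memory), 0 to 19 (naive) and 0 to 9 (interaction) for the rest. With the replicate block they were 167, 147, 0, 0 and 0 in the order Dock2-deficient, wild type, genotype in memory, genotype in naive and interaction. Same-numbered libraries did not all deviate together (correlations -0.253 to 0.303 in Dock2-deficient and -0.0203 to 0.132 in wild-type mice). Of the memory libraries, 1 of 5 and 2 of 4 were nearest to their own number. Yet the Dock2-deficient library with high Xist was number 1 in both memory (2593) and naive cells (2217). Whether same-numbered libraries shared a mouse is not stated, and these values do not settle it. The main fit did not take the numbers as a pairing, and the replicate block is the alternative that does. Depth limits Tnfrsf4 most, then Tnfrsf9, with medians of 2 and 24 reads per library.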

Other observations

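Other TNF family genes near the threshold were picked after their values were seen. Fas, the death receptor that removes activated T cells, was 9.88 to 15.9 in Dock2-deficient memory libraries and 21.8 to 48.2 in Dock2-deficient naive libraries, without overlap (log2 fold change -1.0045 ± 0.27, limma adjusted p = 0.0507). In wild-type mice its fold change was -0.38 ± 0.31 (adjusted p = 0.705), and the difference between the genotypes' fold changes did not pass (-0.62 ± 0.41, adjusted p = 0.819). In memory cells all Dock2-deficient libraries lay below the wild-type ones (21.6 to 36.7), and 4.44% of all genes did not overlap there. That genotype fold change of Fas, -0.92 ± 0.29, did not pass (limma adjusted p = 0.233). In naive cells it was -0.30 ± 0.29 (adjusted p = 0.977). Tnfsf10, which encodes TRAIL, had a log2 fold change of memory over naive cells of 0.33 ± 0.43 in Dock2-deficient mice (limma adjusted p = 0.795) and of 1.78 ± 0.48 in wild-type mice (adjusted p = 0.0504). The difference between these fold changes, -1.44 ± 0.64, did not pass (adjusted p = 0.819). Dock2-deficient over wild type, Tnfsf10 was -0.95 ± 0.45 in memory cells (limma adjusted p = 0.304) and 0.50 ± 0.45 in naive cells (adjusted p = 0.976). In wild-type memory library 4, Tnfrsf22 was 214, against 49.9 to 69.4 in the other wild-type memory libraries, and Tnfrsf23 was 78.6, against 0 to 8.46. Tnfrsf26, their neighbour, was highest in the same library.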
